A study of Mus musculus with 14 samples.

Results

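The BCL2 family decides at the mitochondrion whether a cell survives, and 10 of its genes were followed here in the spleen of wild-type (WT) and STING-deficient mice. Bcl2, Bcl2l1, Mcl1 and Bcl2a1b hold cells alive, Bax and Bak1 execute death, and Bcl2l11, Bbc3, Pmaip1 and Bid are the BH3-only genes that start it. A probe was assigned to a gene when its RefSeq accession belonged to that gene's symbol. By this rule 9 of the 10 genes had a probe, Bcl2a1b being the exception. Their 18 probes all passed the filter on dim signal, among 31766 tested probes. These stand for 24908 genes or transcripts, 14731 of them genes with a symbol and the rest known by accession alone. Shares of all genes given below are over the 24908.

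Splenocyte RNA of 7 WT and 7 Sting gt/gt mice was labelled with Cy3 and measured on 14 one-colour Agilent arrays, 1 mouse per array. The Sting gt/gt mice carry the golden ticket allele, made by chemical mutagenesis with ENU on C57BL/6, a germline change of all cells after which STING protein is not detected. WT mice were C57BL/6 as well but were bought from a supplier, whereas the mutants came from another laboratory, so source and genotype cannot be told apart. Mice of both groups were 10 to 14 weeks old, and all had received an intradermal injection of chicken collagen type II (CII) in complete Freund's adjuvant (CFA) 2 weeks before the spleens were taken, so no group without immunization is described.

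BCL2 and its close relatives BCL-XL (the product of Bcl2l1), MCL1 and A1 (the Bcl2a1 genes) bind and restrain BAX and BAK, which otherwise form pores in the outer mitochondrial membrane, release cytochrome c and set off caspases. BH3-only proteins sense stress or lost survival signals and free BAX and BAK. Lymphocytes depend on BCL2, MCL1 and A1 at different stages, developing red cells depend on BCL-XL, and BIM (Bcl2l11) removes self-reactive and spent lymphocytes.

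All values are log2 signals, that is the log2 of the background-corrected intensity minus the 75th percentile of its own array, so that 0 is the 75th percentile. Differences are Sting gt/gt minus WT on this scale, tested by limma, and a probe was called at an unadjusted p under 0.05, with Benjamini-Hochberg adjustment over all 31766 tested probes beside it. Replicates 1 to 3 of both groups were scanned on one day and replicates 4 to 7 on another, and arrays of these scan days lay apart on the first principal component (42.6% of the variance). Differences are therefore also given within scan day 1 (3 against 3 mice) and scan day 2 (4 against 4). Exact permutation tests are given beside limma, and on the days alone they cannot fall below 0.1 and 0.0286. On scan day 2 each of the 3 slides held 1 genotype, so slide and genotype cannot be told apart there. The spleen cell markers Cd3e (T cells) and S100a8 (neutrophils) were well above background on all 14 arrays. In such bulk RNA, fewer cells of a type and less RNA per cell cannot be told apart.

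Over all 14 arrays 1 of the 9 measured BCL2 family genes was called between genotypes. By the brightest probe of each gene, 4 of the 9 measured genes were above 0 and 5 below, with a median difference of -0.02 (0.02 over all tested genes). The largest differences on these probes were -0.21 for both Bcl2l1 and Bbc3. Of all 18 probes, 5 of which read Bcl2l1, 12 were below 0. Their median was -0.1 (0.015 over all tested probes) and the largest difference had a size of 0.35. Bbc3 was the single gene called, with lower signal in Sting gt/gt mice, against a background of 3.46% of all genes called by their brightest probe (1.62% lower), and of 3.43% of all probes. None of the 18 probes passed an adjusted p of 0.05, which 0.00315% of all probes did. The methods' t-test, unadjusted, called 1 of the 9 genes as well and the Mann-Whitney test 2 of them. On scan day 1 none of the 9 was called (3.75% of all genes were), and on scan day 2 Bak1 and Bcl2l1 were (23.4% of all genes).

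**Figure D1:**
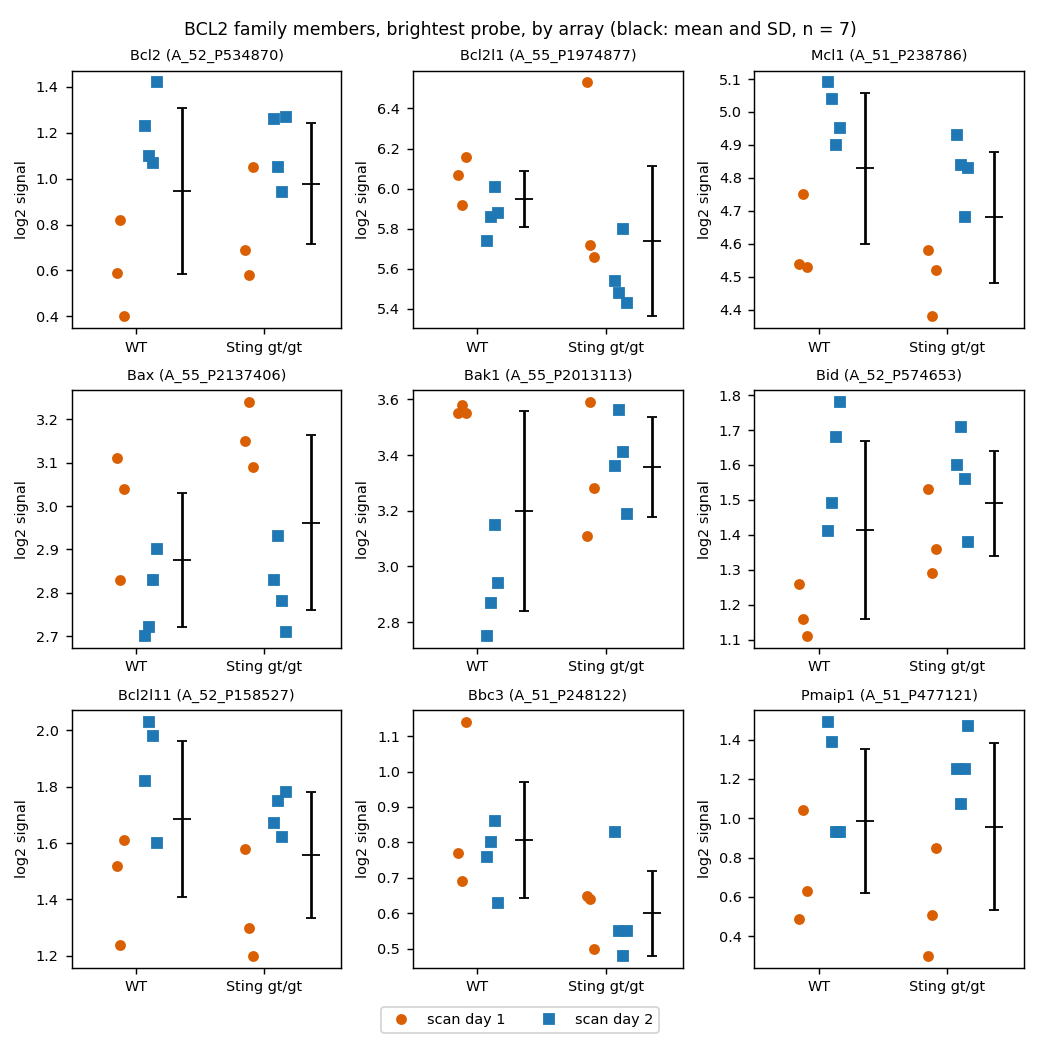
Log2 signal of the brightest probe of 9 BCL2 family genes on each array, WT and Sting gt/gt, with orange circles for scan day 1 (3 mice per group) and blue squares for scan day 2 (4 mice per group); the black bar gives mean and SD over 7 mice. Bcl2l1 of Sting gt/gt replicate 1 sits at 6.53, above every other array. Bak1 separates the genotypes on scan day 2, as did 14.2% of all probes, but not on scan day 1.

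Among the survival genes, Bcl2 itself showed no called difference over the 14 arrays. Its brighter probe (A_52_P534870) ran from 0.40 through a median of 1.07 to 1.42 in WT and from 0.58 through 1.05 to 1.27 in Sting gt/gt mice. The ranges lie nearly on top of each other. The difference was 0.03 (SE 0.16, 95% interval -0.32 to 0.38, p = 0.859 by limma and 0.862 by exact permutation), with 0.17 on scan day 1 and -0.07 on scan day 2.

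The dimmer Bcl2 probe (A_51_P380013), which is assigned to another transcript record of the gene, differed between scan days. On scan day 1 the WT mice read 0.18, 0.55 and 0.01 and the Sting gt/gt mice 0.21, 0.52 and 0.80. On the second day the WT mice read 0.78, 0.59, 0.52 and 0.93 against 0.58, 0.33, 0.20 and 0.45. The groups overlapped on both days, with the mutants toward the lower end on the second. The mutants differed by 0.26 on scan day 1 (unadjusted p = 0.252) and by -0.31 on scan day 2 (unadjusted p = 0.0358 by limma, 0.0571 by exact permutation). The genotype effect changed between the days by -0.58 (SE 0.24, unadjusted p = 0.0306, adjusted p = 0.231), as for 17.7% of all probes. An exact permutation of genotypes within scan days gave p = 0.0414 for this change. Its limma p stayed under 0.05 in 7 of the 14 fits that left out 1 array and was 0.0512 to 0.0932 without Sting gt/gt replicate 2, 3 or 6 or WT replicate 1, 3, 4 or 7. Of the 9 B cell markers, 8 were called for such a change as well, against 17.9% of all genes by their brightest probe. The median difference of the 9 went from 0.29 on the first day to -0.49 on the second. On that second day 7 of the 9 were called lower, against 11.9% of all probes. Summed over the 9 markers, log2 signal on scan day 2 was 17.2 to 22.3 in WT and 13.9 to 17.2 in Sting gt/gt mice. The part of B cell content in the Bcl2 values was not tested.

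Bcl2l1 encodes BCL-XL, and its 5 probes were all lower on average in Sting gt/gt mice, although 1 mutant mouse went the other way. The brightest probe (A_55_P1974877) ran from 5.74 through a median of 5.92 to 6.16 in WT and from 5.43 through 5.66 to 6.53 in Sting gt/gt mice. Of the 7 mutants, 5 lay below the lowest WT mouse, 1 lay within the WT range and replicate 1 lay above the highest. The difference over all arrays was -0.21 (SE 0.15, 95% interval -0.53 to 0.11, p = 0.184 by limma and 0.194 by exact permutation), or 0.865 times the WT level. The other 4 probes gave differences of -0.35 to -0.23 with limma p of 0.103 to 0.215, so none of the 5 was called. With the replicate number as a block, A_51_P299454 was called (-0.29, unadjusted p = 0.013) and the other 4 were not. With slide as a random block the 5 differences were -0.17 to -0.01. Slide as a fixed term, resting on 5 arrays, put 4 of them above 0 (0.12 to 0.31) and A_51_P299454 at -0.01. Those arrays include Sting gt/gt replicate 1, which read 6.53 on the brightest probe beside WT replicates 1 and 2 (6.07 and 5.92). On the other slide Sting gt/gt replicate 2 read 5.72 beside WT replicate 3 (6.16). Bcl2l1 is among the genes that the study itself listed from these same arrays, so its direction here is not independent evidence.

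Sting gt/gt replicate 1 had the highest Bcl2l1 signal of the mutants on all 5 probes. It read 6.53 on the brightest probe, 0.48 on A_66_P122989, 0.22 on A_52_P510877, -0.87 on A_51_P299454 and -1.77 on A_55_P2500448. Without this mouse the brightest probe differed by -0.34 (unadjusted p = 0.00381 by limma), and the other probes by -0.53 to -0.38 (unadjusted p from 0.00173 to 0.0157), so that all 5 would be called. Leaving it out also raised the calls over all probes from 1091 to 2457 of 31766, and the array stood out by this gene's own values. No other single array, left out, gave a call on any of the 5.

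Within scan day 2, which does not hold that mouse, Bcl2l1 was called lower on all 5 probes. Background calls are frequent on that day, at 11.9% of all probes lower and 10.8% higher. The brightest probe read 5.74, 5.86, 6.01 and 5.88 in WT and 5.54, 5.48, 5.80 and 5.43 in Sting gt/gt mice, a difference of -0.31 (unadjusted p = 0.0249, adjusted p = 0.162, exact permutation p = 0.0571). Probe A_52_P510877 gave the largest difference. It read -0.72, -0.61, -0.16 and -0.18 in WT and -0.92, -1.0, -1.09 and -1.40 in Sting gt/gt mice, without overlap, and differed by -0.69 (unadjusted p = 0.00227, adjusted p = 0.0669, exact permutation p = 0.0286). Groups also failed to overlap on A_55_P2500448, where the nearest WT and mutant mice were only 0.01 apart, and 14.2% of all probes had such groups on that day. The remaining 3 probes, the brightest included, had an exact p of 0.0571.

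Further fits of scan day 2 were added after seeing the data, and they do not part slide from genotype. Probes A_52_P510877 and A_55_P2500448 were called under each of 5 other scalings or sources of the values. Both were also called without each of the day's 8 arrays in turn. The brightest probe lost its call with median centring and without WT replicate 6 or Sting gt/gt replicate 4, 5 or 7, with p up to 0.0812. A_66_P122989 lost it with median centring and without WT replicate 6 or 7 or Sting gt/gt replicate 7, with p up to 0.0759. A_51_P299454 kept its call under 1 of the 5 other scalings or sources and without 2 of the 8 arrays, namely WT replicate 5 and Sting gt/gt replicate 6. All of these values remained negative. On scan day 1 the 5 probes differed by -0.24 to 0.12 with no call, and the change of the genotype effect between days was not called for any of them (unadjusted p = 0.0503 for A_52_P510877, the smallest).

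Erythroid genes were lower on average in the mutants too, and highest in the same mouse. Of 11 measured erythroid markers 8 were below 0 and 2 were called lower, against 1.62% of all genes, with a median of -0.29 over the list. Tfrc, the transferrin receptor, differed by -0.52 (unadjusted p = 0.0412 by limma, 0.0641 by exact permutation), whereas the 3 globin genes of the list lay above 0, at 0.06, 0.06 and 0.11, with no call. Summed over all 11 markers, log2 signal was 60.4 to 69.9 in WT and 57.9 to 70.7 in Sting gt/gt mice. The value of 70.7, the highest of all 14, belonged to Sting gt/gt replicate 1. Without that mouse the list's median difference was -0.41. Within scan day 2 the sums were 60.4 to 65.4 in WT and 57.9 to 60.9 in Sting gt/gt mice. On that day 6 of the 11 markers were called lower, against 11.9% of all probes. Red blood cells had been lysed before RNA was taken, and the part of erythroid content in the Bcl2l1 values was not tested.

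**Figure D2:**
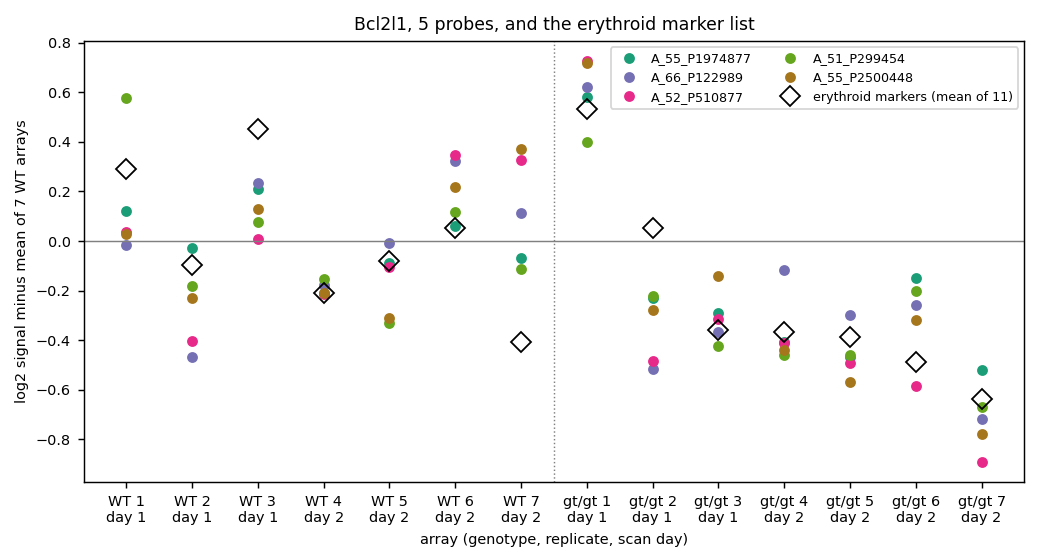
Log2 signal of the 5 Bcl2l1 probes (coloured points) and the mean of 11 erythroid markers (open diamonds) on each of the 14 arrays, each minus its mean over the 7 WT arrays. Sting gt/gt replicate 1 is the highest for the erythroid markers, and the remaining Sting gt/gt mice lie below 0 on all 5 Bcl2l1 probes.

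The promoter of Bcl2l1 is shown because it was the only one of the RefSeq windows searched for these genes that held the letters AGATAA, the core bound by GATA factors such as the erythroid factor GATA1. Windows ran from 250 bases before to 50 after a start in GRCm38.p6, and 14 windows of 9 of the 10 genes were searched on both strands (those of Pmaip1 were not used). The match begins 41 bases before 1 of 3 listed starts. The 30 bases around it, chr2:152828513-152828542 on the minus strand, are printed with the motif in capitals.
Bcl2l1: attgtgacccaaAGATAAagagagcagagg
AGATAA occurs in 11.2% of all 32851 promoter windows. Of the other motifs searched, the core of the interferon-stimulated response element (3.44% of all windows) and TTCNNNGAA (the STAT-binding GAS element, 8.30%) were in none of the 14, CACGTG (E-box, 7.15%) was in 1 window each of Bax and Bbc3, and CCAAT (37.4%) was in 3. The p53 half-site consensus, found in 8.36% of all windows, was in that of Bax, a p53 target gene, on both strands of the same letters. GC content of the 14 windows had a median of 64.5% against 52.7% over all promoters. These are matches of letters within short windows and say nothing of binding.

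Mcl1, the short-lived survival factor that most blood cells require, was slightly lower in the mutants on both scan days. It ran from 4.53 through a median of 4.90 to 5.09 in WT and from 4.38 through 4.68 to 4.93 in Sting gt/gt mice. For scan day 2, WT mice read 5.09, 5.04, 4.90 and 4.95 and mutants 4.93, 4.84, 4.68 and 4.83, which overlap by a single mouse. The difference was -0.15 over all arrays (SE 0.12, 95% interval -0.41 to 0.11, unadjusted p = 0.25), -0.11 on scan day 1 and -0.17 on scan day 2. Adding the scan day to the model gave a p of 0.0675, and an exact permutation of genotypes within scan days gave p = 0.0186 (p = 0.219 over all arrays). Mcl1 was thus uncalled by limma in each of these fits.

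Of the Bcl2a1 genes, near-identical copies that encode A1, Bcl2a1b had no probe by its accession and its level is not given. Probes of 2 copies outside the 10 genes were measured, and signal from the other copies on them cannot be told apart. Bcl2a1d lay between 3.49 and 4.26 in WT and between 3.56 and 4.31 in Sting gt/gt mice, a difference of -0.06 (SE 0.14, p = 0.686 by limma and 0.678 by exact permutation). Bcl2a1c lay between -1.19 and 0.26 in WT and between -1.10 and 0.04 in Sting gt/gt mice, a difference of -0.08 (SE 0.25, p = 0.755 by limma and 0.767 by exact permutation). Neither was called.

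Of the pore-forming effectors, Bax showed no called difference. It ran from 2.70 through a median of 2.83 to 3.11 in WT and from 2.71 through 2.93 to 3.24 in Sting gt/gt mice on its brighter probe. The difference was 0.08 (SE 0.11, 95% interval -0.15 to 0.31, p = 0.457 by limma and 0.39 by exact permutation), with 0.16 on scan day 1 and 0.02 on scan day 2. Its dimmer probe differed by 0.12 (p = 0.391 by limma and 0.39 by exact permutation).

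Bak1, with 1 probe, had a genotype difference that changed between scan days. On scan day 1 WT mice read 3.55, 3.58 and 3.55 and Sting gt/gt mice 3.11, 3.59 and 3.28, so 2 of 3 mutants were below all WT mice. On the second day WT mice read 2.75, 2.87, 3.15 and 2.94 and Sting gt/gt mice 3.36, 3.56, 3.41 and 3.19, so all mutants were above all WT mice. Groups failed to overlap, in either direction, for 14.2% of all probes on that day, and 10.8% of all probes were called higher. The Bak1 level of WT mice was lower on the second day, whereas that of the mutants was similar on both.

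Bak1 thus differed by -0.23 on scan day 1 (SE 0.16, unadjusted p = 0.191) and by 0.46 on scan day 2 (SE 0.12, unadjusted p = 0.00458, adjusted p = 0.0836, exact permutation p = 0.0286). Over all 14 arrays it differed by 0.16 (SE 0.15, p = 0.306 by limma and 0.302 by exact permutation). Between the days the genotype effect changed by 0.69 (SE 0.19, unadjusted p = 0.00317, adjusted p = 0.1), and exact permutation within days gave p = 0.00857. Bak1 was the only one of the 9 genes called for such a change, against 17.9% of all genes by their brightest probe. Without each array in turn the change was 0.58 to 0.82 with p of 0.0007 to 0.00998. Further fits of scan day 2 were added after seeing the data and read for Bak1 and Bcl2l1 only. In them the Bak1 difference was 0.39 to 0.49 under 5 other scalings or sources. It was 0.40 to 0.53 without each of the day's 8 arrays, with a call in all 13 fits. None of these fits parts slide from genotype.

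Of the marker lists within scan day 2, the 7 plasma cell markers had a median difference of 0.30 with 4 called higher and the 10 neutrophil markers 0.31 with 2 called higher, against 10.8% of all probes, and the B cell markers had -0.49. The summed log2 signal of the neutrophil list on that day was 47.1 to 48.9 in WT, inside the 44.9 to 55.2 of Sting gt/gt mice, and that of the plasma cell list 7.9 to 10.3 and 10.6 to 13.5. The part of cell composition in the Bak1 values was not tested.

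**Figure D3:**
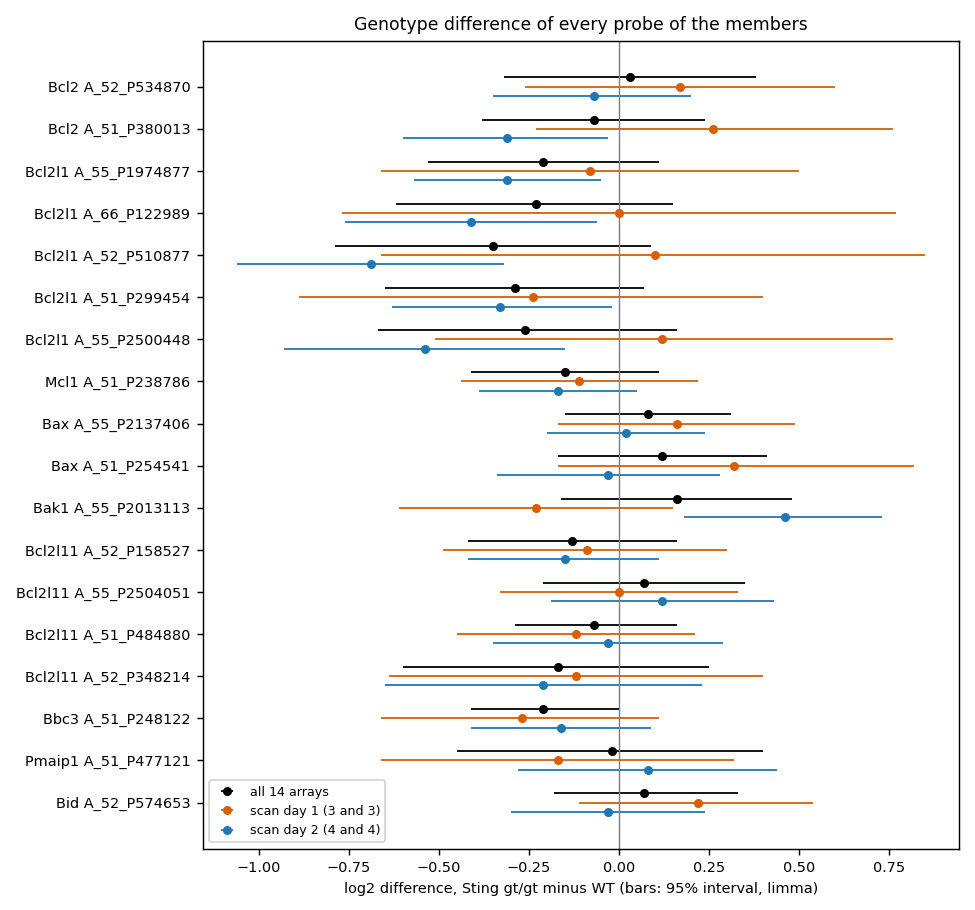
Genotype difference (log2, Sting gt/gt minus WT) of all 18 probes with 95% intervals from limma, over 14 arrays (black), on scan day 1 (orange) and on scan day 2 (blue). Intervals over 14 arrays cross 0 for every probe but that of Bbc3, while on scan day 2 the 5 Bcl2l1 probes lie below 0 and Bak1 lies above it.

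Of the BH3-only genes, Bbc3 (PUMA, a p53 target that also answers to other stresses) was lower in Sting gt/gt mice and was the gene called above. It ran from 0.63 through a median of 0.77 to 1.14 in WT and from 0.48 through 0.55 to 0.83 in Sting gt/gt mice. Of the 7 mutants, 4 lay below the lowest WT mouse and 6 below the WT median, with replicate 4 as the exception. The difference was -0.21 (SE 0.10, unadjusted p = 0.0499 by limma, adjusted p = 1), or 0.867 times the WT level.

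The Bbc3 values pointed the same way on both days. On scan day 1 WT mice read 0.77, 0.69 and 1.14 and Sting gt/gt mice 0.65, 0.64 and 0.50, which do not overlap, as for 9.25% of all probes on that day. On the second day WT mice read 0.76, 0.80, 0.86 and 0.63 and Sting gt/gt mice 0.83, 0.55, 0.48 and 0.55. The differences were -0.27 (unadjusted p = 0.143) and -0.16 (unadjusted p = 0.186), neither called by itself. Exact permutation gave p = 0.0152 over all arrays and p = 0.0171 within scan days.

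The call of Bbc3 lay close to the threshold. With the replicate number as a block p was 0.0782, and with scan day in the model it was 0.0375. Without 1 array it held when WT replicate 2 or 7 or Sting gt/gt replicate 4 was left out and was lost without any of the other 11 arrays (limma p from 0.0533 to 0.117), with differences of -0.25 to -0.15 throughout.

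Bcl2l11 (BIM), Pmaip1 (NOXA) and Bid showed no called difference. Bcl2l11 ran from 1.24 through a median of 1.61 to 2.03 in WT and from 1.20 through 1.62 to 1.78 in Sting gt/gt mice on its brightest probe, a difference of -0.13 (SE 0.14, p = 0.364 by limma and 0.354 by exact permutation). Its other 3 probes differed by -0.17 to 0.07, and the dimmest was well above background on 11 of the 14 arrays. The 4 probes did not share a direction.

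Pmaip1, another p53 target, ran from 0.49 through 0.93 to 1.49 in WT and from 0.30 through 1.07 to 1.47 in Sting gt/gt mice, a difference of -0.02 (SE 0.20, 95% interval -0.45 to 0.40). Bid, which links death receptors to mitochondria once cut by caspase 8, ran from 1.11 through 1.41 to 1.78 in WT and from 1.29 through 1.53 to 1.71 in Sting gt/gt mice, a difference of 0.07 (SE 0.12, 95% interval -0.18 to 0.33). On scan day 1 the 3 Bid values of Sting gt/gt mice, 1.53, 1.29 and 1.36, lay above the WT values of 1.26, 1.16 and 1.11. Groups failed to overlap for 9.25% of all probes on that day. The Bid difference of 0.22 was not called (unadjusted p = 0.16 by limma) and was -0.03 on the second day.

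More of these genes were called between scan days than between genotypes. With genotype in the model, limma put 6 of the 9 genes past an adjusted p of 0.05 for scan day 2 against scan day 1, as it did 38.9% of all genes (17.2% higher and 21.7% lower). Bcl2 (0.48), Mcl1 (0.36), Bcl2l11 (0.37), Pmaip1 (0.58) and Bid (0.29) were higher on scan day 2, and Bax (-0.28) was lower, with adjusted p of 0.00175 to 0.0198. Bak1 and Bcl2l1 both differed by -0.29 (adjusted p = 0.0943 and 0.0914), and Bbc3 by -0.05 (adjusted p = 0.696).

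Other genes of the mitochondrial pathway were read in the same way, from lists by function. The other BCL2 family list of 16 genes had 13 tested, with a median difference of 0.07 and none called by limma, unadjusted. The genes with the smallest p were Bcl2l12 (0.26, SE 0.13), Bnip3l (-0.22, SE 0.15) and Bok (0.21, SE 0.15), with exact permutation p = 0.0647, 0.156 and 0.207. BNIP3L removes mitochondria from maturing red cells, and BOK is a relative of BAX and BAK. On the second day these 3 of the 13 genes were called, with differences of 0.54, -0.48 and 0.44, against 23.4% of all genes. They had been picked by a p that includes the arrays of that day.

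Downstream of mitochondria, 20 of 20 genes of caspase activation were tested, with a median of 0.05 and 15 above 0. A single gene, 1 of the 20, was called, against 3.46% of all genes by their brightest probe. That gene was Endog, a mitochondrial nuclease, at -0.52 ± 0.15 (SD) in WT and -0.27 ± 0.18 in Sting gt/gt mice, a difference of 0.24 (SE 0.10, unadjusted p = 0.0339 by limma, 0.0198 by exact permutation, adjusted p = 1). Endog differed by 0.24 on scan day 1 and 0.25 on scan day 2. Vdac1, a channel of the outer mitochondrial membrane, differed by 0.16 (unadjusted p = 0.175 by limma, 0.138 by exact permutation).

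Of 16 upstream regulators, all tested, 12 were below 0 with a median of -0.09. Of them 1 was called, against 3.46% of all genes by their brightest probe. Ddit3 (CHOP), a transcription factor of the endoplasmic reticulum stress response that can induce Bbc3 and Bcl2l11, was -0.05 ± 0.41 (SD) in WT and -0.71 ± 0.52 in Sting gt/gt mice. It differed by -0.65 (SE 0.23, unadjusted p = 0.013 by limma, 0.0262 by exact permutation, adjusted p = 1), with -0.41 on scan day 1 and -0.84 on scan day 2. Cdkn1a, the p53 target p21, differed by -0.21 and Akt1, a survival kinase, by 0.13, with p = 0.142 and 0.0659 by exact permutation. None of the genes in these 3 lists passed an adjusted p of 0.05.

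The remaining cell type lists differed little over all 14 arrays. The median differences of T cell, macrophage and dendritic cell markers were 0.04, 0.02 and 0.01, with 7 of 9, 4 of 8 and 3 of 6 above 0. Those of NK cell, plasma cell and neutrophil markers were 0.18, 0.14 and 0.16, with 7 of 8, 5 of 7 and 9 of 10 above 0. That of B cell markers was -0.18 with 8 of 9 below 0. None of the genes of these 7 lists was called over all arrays by limma, unadjusted.

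**Figure D4:**
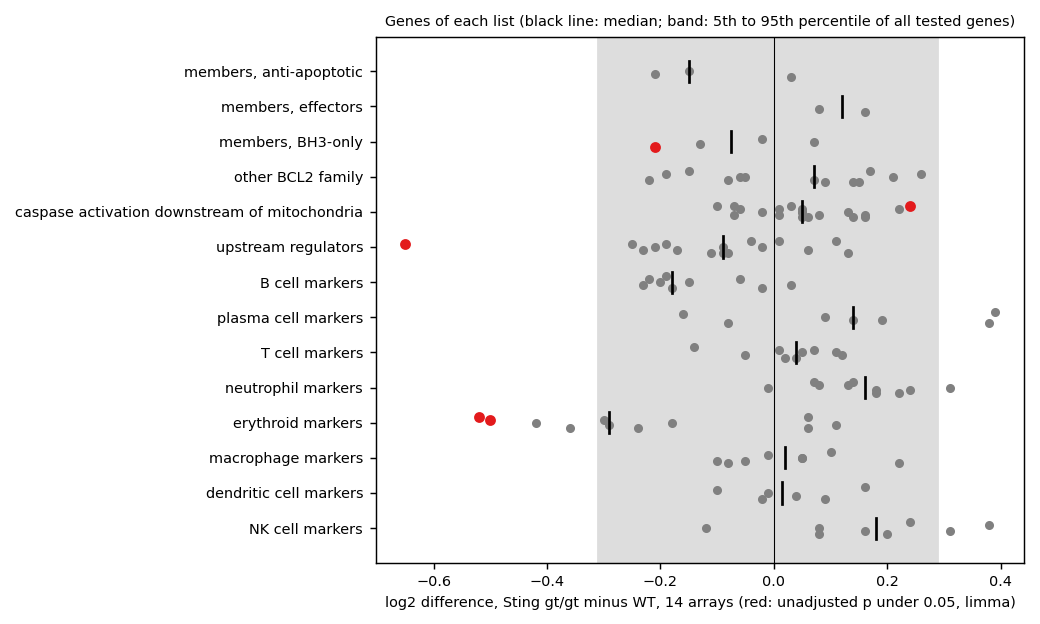
Genotype difference (log2, Sting gt/gt minus WT, 14 arrays) of each gene by its brightest probe, grouped by list, with the list's median as a black line, genes called at an unadjusted p under 0.05 in red, and the 5th to 95th percentile of all tested genes (-0.31 to 0.29) as a grey band. All 9 measured BCL2 family genes of the first 3 lists lie inside the band, and Ddit3 at -0.65 and erythroid markers lie to its left.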

How the data were processed

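Scanner files of 14 one-colour Agilent arrays (7 WT and 7 Sting gt/gt mice, each replicate a separate mouse) were used. The intensity values deposited in them are processed signals, which the authors took from the scans by Agilent Feature Extraction (version 11.0.1.1 in the submitters' processing notes), corrected for background and not normalized between arrays. The authors also deposited a table with a log2 value for every array and probe, which correlated with the log2 processed signal at 0.997 to 0.999. How it was normalized is not given in the sources used here, and it served as an alternative.

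Control spots (62976 spots per array, 59305 not controls) and spots with outlier flags were left out, spots of the same probe (56605 probes) were averaged, and values were put on a log2 scale relative to the 75th percentile of the array. That percentile was 562 to 766 intensity units, 30781 to 34400 probes per array were well above background, and no spot was saturated. A probe was tested if 7 or more of the 14 arrays had it well above background. Precision is limited by how many arrays there are. Probes were named by accession, without versions, through a RefSeq table of GRCm38.p6, in which 32994 probes (58.3%) had a symbol. The array follows an older build, so no gene positions were taken from it. The tested probe of highest mean stood for its gene, and all probes of the 10 genes are given.

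Genotypes were compared by limma 3.58.1 (lmFit, eBayes) in R 4.3.3 without covariates, two-sided, with an unadjusted threshold of 0.05, as the study's methods set it, and Benjamini-Hochberg adjustment over all tested probes. The scan-day change of the genotype effect was a contrast of 4 group means. Two-sided exact permutation tests used all 3432 ways to part the 14 arrays, or 1400 ways within scan days, or each day alone, and gave 5 p-values for each of the 18 probes. The limma fit was tested on simulated data. The 10 genes and all lists were chosen with earlier results of these data known. Named genes were the 10, the 3 with the smallest p of each further pathway list and any past an adjusted p of 0.05. Tfrc and the globin genes were named after their values were seen. A few genes under this rule are not reported here. Markers were given by counts.

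Both groups carry replicate numbers 1 to 7. Deviations of same-numbered arrays from their group means correlated at 0.151 to 0.522 in all 7 pairs, and at -0.405 to 0.276 once scan-day means were removed, so the pairing follows the scan day, and the block is an alternative. Other alternatives covered scaling, background correction (normexp, offset 50, on the median signal), source, dim probes, outlier flags, probes of a gene, tests, scan day, slide and each array left out. Python 3.11.15 with numpy 2.4.6, pandas 2.3.3 and matplotlib 3.10.9 made the summaries and plots.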

Additional observations from a re-analysis of the deposited data

Results flagged for a closer look

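The difference between genotypes itself differed between the scan days for 2 of the 18 probes, by the limma contrast of the days, unadjusted. Of all probes 17.7% were called for such a change. For Bak1 (A_55_P2013113) it changed by 0.69 on the log2 scale from scan day 1 to scan day 2 (limma, adjusted p = 0.1). For the dimmer Bcl2 probe (A_51_P380013) it changed by -0.58 (limma, adjusted p = 0.231). The brighter Bcl2 probe changed by -0.24 (exact permutation p = 0.29).

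Sting gt/gt replicate 1 stood apart from its group on 3 of the 5 Bcl2l1 probes, by the gap to the next mouse relative to the range of the group (Dixon's critical value 0.568 for 7 samples). Its log2 signal was 6.53 on A_55_P1974877, 0.22 on A_52_P510877 and -1.77 on A_55_P2500448. Chance flags about 1 in 20 groups, 36 groups of 7 arrays were examined for these genes, and the 5 probes read the same gene.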

How the results depend on the processing

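The number of all tested probes called between genotypes was 1091 and depended on the setting. It was 1825 with the replicate block (the replicate number as a block, following the pairing by number), 2325 with a scan day term, 5728 with array weights and trend, 2455 with the series table, 591 with slide as a random block and 7209 within scan day 2. Chosen after seeing the data, a scan day term gave 2117 with median centring and 2270 with the series table. Leaving out 1 array gave 624 (without Sting gt/gt replicate 6) to 2457 (without Sting gt/gt replicate 1). The share of these calls that were higher in Sting gt/gt mice was 51.4%, against 29.9% with median centring, 18.2% with no scaling and 63.7% with normexp.

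Of the 9 genes, each read by its brightest probe, 1 was called. The count was 2 with the Mann-Whitney test (Bbc3 and Bcl2l1), which called 921 of all tested probes. It was also 2 with array weights (Bcl2l1 and Bak1) and within scan day 2 (the same). It was 0 with median centring (with or without a scan day term), no filter, normexp and the replicate block. Slide as a fixed or random block and scan day 1 alone gave 0 as well. Without 1 array the count was 0 to 1. Bak1 alone was called for a genotype effect that differed between days under quantile normalization, median centring, no scaling, the series table, array weights and each array left out, the settings run for it.

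Differences changed sign for Bcl2 with the median of its probes (-0.019), with no scaling (-0.024) and within scan day 2 (-0.074), and for Bcl2l11 with the median of its probes (0.00085). Slide as a fixed block, which rests on the 5 arrays of 2 slides that held both genotypes, turned Bcl2l1 to 0.12 and Bak1 to -0.24. The only mutants on those slides were Sting gt/gt replicates 1 and 2. Bak1 was -0.23 within scan day 1, and within scan day 2 Pmaip1 was 0.081 and Bid -0.032. Without 1 array Bcl2 ran from -0.061 to 0.11 and Pmaip1 from -0.11 to 0.085. Causes were not tested. Of 315 other values, 165 kept direction and side of the threshold under other settings and 106 without 1 array. Bbc3 was lower in every one.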
